A study of Mus musculus with 54 samples.

Results

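Tight clusters of CTCF sites are places where several CTCF ChIP-seq sites lie within a few kilobases of each other. They were chosen from the 8 libraries of cells rescued with CTCF-WT, 4 from embryonic stem cells (ESCs) and 4 from neural progenitor cells (NPCs). Overlapping peaks of these libraries were merged into 51851 sites, and the 13435 called in at least 6 of the 8 libraries were kept. Sites whose median summits lay within 5 kb of the next were linked, and 2712 of the 13435 sites, in 1250 clusters, had at least 1 linked neighbour. They are set here against 6704 isolated sites, which had no other kept site within 20 kb, and 4019 sites lay in between. The choice used the CTCF-WT calls, so comparisons of CTCF-WT values are given as a description that supports nothing, while the ΔZF1, E14, polyA and cohesin libraries took no part in it.

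The series holds 54 samples, of which 44 are peak lists and 10 are inputs not analysed here. The 16 CTCF rescue libraries came in 4 groups of 4, NPC-ΔZF1, NPC-WT, ESC-ΔZF1 and ESC-WT, and the Smc3 and Rad21 rescue libraries in the same groups with 2 libraries each. In the CTCF rescue lists of replicate 4 every peak name carries the number 2. They shared 0 identical peak intervals with the lists of replicate 2, but whether replicate 4 is a separate library was not settled, and with it the n of 4 and 8 and the rule of 6 of 8 libraries. All rescue cells shared E14 mouse ESC origin, both endogenous CTCF alleles fused to mAID-eGFP, OsTir1(F74G) at Rosa26 and an mCherry reporter of Hb9, and they carried a doxycycline-inducible Flag-Halo CTCF transgene at Tigre that was either ΔZF1, which lacks zinc finger 1, or WT. They received 1 µM 5-Ph-IAA, which degrades the tagged endogenous CTCF, and 1 µg/ml doxycycline for 24 hours, as ESCs or as NPCs made by 2 days of differentiation. Each rescue line was a single clone. A further 6 CTCF and 6 Smc3 libraries came from NPCs that were PodxlpA or Grb10pA, with an early polyA cassette in both alleles of Podxl or Grb10, or parental E14, with 2 libraries per line and antibody. The labels do not say that replicates came from separate cultures, though the study calls them biological replicates, so p-values measure the spread between these libraries, which may be technical. NPC or ESC identity cannot be read from peak lists.

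CTCF is a zinc-finger protein that binds an asymmetric DNA motif and can halt the cohesin ring, of which Smc3 and Rad21 are core subunits, as cohesin extrudes chromatin loops. Because the motif has a direction, neighbouring sites can point towards each other (convergent), away from each other (divergent) or the same way (same strand), and long loops usually join convergent sites. Clusters of CTCF sites are known from boundaries of chromatin domains and from imprinted loci.

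The clusters were small and short. Pairs made up 1076 of the 1250 clusters, or 86.1%, and the others held 3 sites (144 clusters), 4 (24), 5 (4) or 6 (2). The median distance between a clustered site and its nearest neighbour was 2556 bp, with the closest summits 790 bp apart, and the median cluster spanned 2912.5 bp between its outer summits, the longest 12888 bp. The sites just inside and just outside the linking limit had neighbours at 4999 and 5002 bp, and those at the isolation limit at 19995 and 20006 bp. There were 144 pairs of adjacent sites 4500 to 5000 bp apart and 166 pairs 5000 to 5500 bp apart, so the limit falls in no gap of the distances.

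Most sites held a CTCF motif. A match to the CTCF core motif, searched as its consensus of 14 letters with up to 2 mismatches on both strands within 50 bp of the summit, was found at 79.3% of clustered sites (95% Wilson interval 77.7 to 80.8%) and 76.9% of isolated sites. In windows of the same size 1000 bp away the shares were 4.61% and 2.92%. The sequences below were read from the RefSeq GRCm38 (mm10) genome, 5′ to 3′ on the strand of the motif, with the matched 14 bases in capitals. They show the 3 arrangements of neighbouring motifs that the cohesin results turn on, the pair with the highest CTCF-WT enrichment among those with 2 motifs that were called in every CTCF library, and the repeated motifs of the cluster on the Y chromosome.
Gm13814 intron, convergent pair, chr2:92485793-92485822, plus strand: gcccagcgCCACTGGAGGGCAGcaccagca
Gm13814 intron, convergent pair, chr2:92486587-92486616, minus strand: acaactgtCCACAAGACGGCGCtcccactc
Wdr95 upstream, divergent pair, chr5:149524771-149524800, minus strand: catggactCCACTAGGGGGCAAtggatgat
Wdr95 upstream, divergent pair, chr5:149525588-149525617, plus strand: tgcagataCCAGCAGAGGGCGCtggttgct
Nid2 upstream, same-strand pair, chr14:19705845-19705874, plus strand: gcgaccctCCGCTAGGGGGAGGaggataac
Nid2 upstream, same-strand pair, chr14:19706618-19706647, plus strand: cagtttctCCTCTAGAGGGCGCcagaggtc
Dkk3 upstream, divergent pair, chr7:112180294-112180323, minus strand: tgatgagaCCACAAGGTGGCGCtgttccca
Dkk3 upstream, divergent pair, chr7:112183404-112183433, plus strand: caagatgtCCAGGAGGTGGCGCcaaactga
Gm47283 intron, member 3, chrY:90805171-90805200, minus strand: tcctgtggCCACTGGGTGGCGCcagagcat
Gm47283 intron, member 4, chrY:90807776-90807805, minus strand: tcctgtggCCACTGGGTGGCGCcagagcat
Gm47283 intron, member 5, chrY:90808847-90808876, minus strand: tcctgtcgCCACTGGGTGGCACcagagcca
Gm47283 intron, member 6, chrY:90811042-90811071, minus strand: tcctggggCCACTGGGTGGCGCcagagcat

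The Y-chromosome motifs were close copies of each other but such copies were rare among the clusters. Reads with a mapping quality under 30 had been removed by the authors, and the part of this step at the copies was not tested. Of 967 pairs of successive motif-bearing members, counted across any member without a motif between them, 7 (0.724%) were identical over the 14 bases and 3 shared at least 27 of the 30 bases shown, of which 1 was on the Y chromosome. The median pair shared 14 of 30 bases.

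Clustered sites lay in much the same kinds of place as isolated sites. By GENCODE M21, 42.5% of clustered and 43.0% of isolated sites were intergenic, 39.4% and 40.7% intronic, 10.7% and 8.55% in exons outside UTRs, and 7.34% and 7.67% in UTRs. A transcription start site lay within 1 kb of 24.9% of clustered sites (23.3 to 26.6%) and 28.7% of isolated sites (27.7 to 29.8%). Median GC content over 500 bp was 52.6% at clustered and 51.0% at isolated sites. By chromosome, 417 of the 1552 kept sites on chromosome 11 were clustered (26.9%), against 11 of 172 on the X chromosome (6.40%), and 9 of the 10 kept sites on the Y chromosome were. These intervals cover counting error only.

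In the CTCF-WT libraries that chose them, clustered sites were slightly stronger than isolated sites. For each library, sites were placed by the percentile of their fold enrichment over background among all peaks of that library. The median over libraries was at the 68.8th percentile for the middle clustered site, at 66.6 for the middle isolated site and at 67.7 for sites in between. All 8 libraries called 49.3% of clustered and 41.2% of isolated sites. A weaker site, called in fewer than 6 of the 8 libraries, also lay within 20 kb of 80.2% of clustered and 68.8% of isolated sites, so isolation refers to kept sites.

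Libraries differed widely in peak number. The number ran from 5755 to 45941 in the CTCF rescue libraries, 15505 to 28805 in the E14 and polyA CTCF libraries, 8169 to 34104 and 10005 to 15626 in the Smc3 libraries of those lines, and 1306 to 10415 in the Rad21 libraries. Every comparison of clustered with isolated sites was therefore made within a library, as the difference between the shares of sites overlapped by a peak, and tested over libraries. Single peaks that bridged neighbouring sites were few, at most 19 in a CTCF library, 1 in an Smc3 library and 0 in Rad21 libraries.

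Clustered sites were called somewhat more often than isolated sites in ΔZF1 cells, but the difference was small and did not pass the test after adjustment. In NPC-ΔZF1, replicates 1 to 4 called 52.4, 63.9, 35.7 and 87.9% of clustered sites, against 51.2, 56.4, 31.2 and 84.0% of isolated sites. In ESC-ΔZF1 they called 98.9, 82.7, 66.8 and 74.3% of clustered sites, against 99.0, 78.2, 62.1 and 70.9% of isolated sites. The libraries differed far more from each other than the site classes did within a library, and clustered sites were higher in 7 of 8 libraries, the exception being ESC-ΔZF1 replicate 1, in which nearly every site was called.

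**Figure D1:**
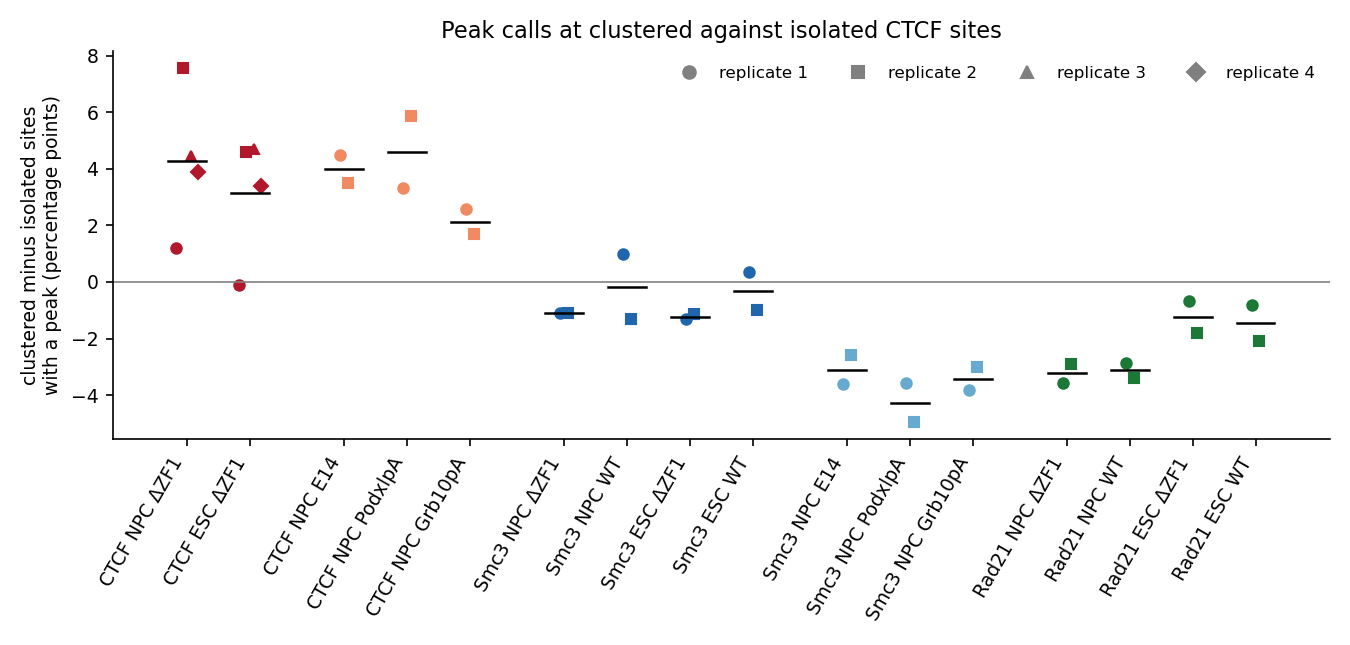
Difference between clustered and isolated sites in the share of sites called (y axis, percentage points, clustered minus isolated), 1 point per library, for CTCF, Smc3 and Rad21 libraries that did not choose the sites. The bars are means over libraries. CTCF points lie above 0 except 1, with means of 3.70 points in ΔZF1 rescue cells and 3.58 in E14 and polyA NPCs, while the Rad21 points, mean -2.26, lie below 0.

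Over the 8 ΔZF1 libraries the difference was 3.70 ± 2.33 percentage points (SD, n = 8, 70.3% of clustered and 66.6% of isolated sites), with a two-sided exact sign permutation p of 0.0156 and an adjusted p of 0.0586 over the 15 comparisons of clustered with isolated sites. It was 4.27 points in NPC-ΔZF1 (4 of 4 libraries higher) and 3.13 in ESC-ΔZF1 (3 of 4, exact p = 0.25), where the smallest p that 4 libraries allow lies above the threshold of 0.05 and was reached in NPC-ΔZF1. NPC-ΔZF1 minus ESC-ΔZF1 was 1.14 points (exact permutation p = 0.514). These tests over both cell types treated the libraries as independent. Same-numbered NPC-ΔZF1 and ESC-ΔZF1 libraries deviated together in site rank (Pearson r 0.203 to 0.577). In the E14 and polyA NPCs, which have only endogenous CTCF, the mean share was 87.0% of clustered and 83.4% of isolated sites, a difference of 3.58 points that was positive in 6 of 6 libraries (exact p = 0.0313, the smallest that 6 libraries allow, adjusted p = 0.0670). Sites in between were called at 84.1 and 91.1% in E14, 91.8 and 73.1% in PodxlpA, and 92.3 and 88.1% in Grb10pA NPCs. Clustered sites stood close to these, at 83.9 and 91.0%, 91.7 and 74.3%, and 93.0 and 87.9%. The higher share was thus not particular to clusters.

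Site strength moved with this difference. With isolated sites weighted to the clustered sites' spread over 10 bins of CTCF-WT percentile, the ΔZF1 difference was 2.47 points (exact permutation p = 0.0234, adjusted 0.0670). When only sites called in all 8 CTCF-WT libraries were kept, and clustered and isolated sites were defined anew among them, it was 1.06 points (exact p = 0.305). The labels name no batch, but the median peak was 352 to 447 bp wide in the 8 CTCF rescue libraries numbered 1 and 4 and 190 to 301 bp wide in the 8 numbered 2 and 3. Within these sets the ΔZF1 difference was 2.09 points in numbers 1 and 4 and 5.32 in numbers 2 and 3, each with 4 libraries.

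Fewer clustered sites were found in NPC-ΔZF1 than in ESC-ΔZF1. The study counted a peak as reproducible when 3 of 4 replicates held it, and by that count 47.5% of clustered sites (1288 of 2712, interval 45.6 to 49.4%) were found in NPC-ΔZF1 and 78.5% (2129 of 2712, 76.9 to 80.0%) in ESC-ΔZF1. Over all 13435 sites the shares were 43.4% in NPC-ΔZF1 and 76.5% in ESC-ΔZF1, over isolated sites 41.1% and 74.2%, and over sites in between 44.4% and 79.0%. The clustered share in ESC-ΔZF1 was thus not above that of sites in between. Unlike the differences above, this count compares libraries with each other. Replicates 1 to 4 held 13639, 10242, 5755 and 33452 peaks in NPC-ΔZF1, and 45941, 17092, 15779 and 16413 in ESC-ΔZF1. The part of list size in the lower NPC-ΔZF1 shares was not tested. No NPC-ΔZF1 library called 152 clustered sites (5.60%, against 8.26% of isolated and 7.09% of all sites), and no ESC-ΔZF1 library called 21 (0.774%, against 0.701% of isolated and 0.677% of all sites).

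The share called changed little with the distance to the nearest site. In the 8 ΔZF1 libraries it averaged 65.5% for 84 sites with a neighbour within 1 kb, 69.5% from 1 to 2 kb, 71.0% from 2 to 5 kb, 70.5% from 5 to 10 kb, 68.7% from 10 to 20 kb, 67.8% from 20 to 50 kb and 65.7% beyond. The highest share was at 2 to 5 kb, and the closest and the most distant sites had almost the same share. Clusters of 2, 3 and at least 4 sites stood at 70.1, 71.4 and 70.6%.

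Members of a cluster were often called separately. In NPC-ΔZF1 replicate 3, the library with the fewest calls, both members of a pair were called in 12.9% of the 1076 pairs, 1 member in 46.1% and neither in 41.0%, against 76.9, 20.5 and 2.60% in replicate 4. The member with the higher CTCF-WT percentile was called in 78.9% and its weaker partner in 61.3% of pairs, averaged over ΔZF1 libraries. All members were called in all 8 ΔZF1 libraries in 31 of the 1250 clusters, and 134 clusters (10.7%) held 1 member called in at least 7 libraries beside another called in 3 or fewer.

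Some clusters were called throughout. Every member was called in all 22 CTCF libraries in 22 clusters, and the 4 with the highest CTCF-WT enrichment lay at Gli1, a transcription factor of hedgehog signalling (chr10:127338788-127342763), at Fcor and Trappc5, a subunit of the TRAPP trafficking complexes (chr8:3671766-3676707), upstream of Dkk3, a secreted protein of the Dickkopf family (chr7:112179995-112183787), and at Kcnab2, a potassium channel beta subunit (chr4:152432052-152435757). The Dkk3 members were called in 14 and 14 of 14 Smc3 libraries and 7 and 3 of 8 Rad21 libraries, while the Gli1 members, without a motif, were called in 5 and 8 Smc3 libraries and 0 and 1 Rad21 libraries.

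At the other end, 6 clusters were chosen for the fewest ΔZF1 calls, and their values are a description. The pair near Gm35514 (chr13:69460048-69461339) was intergenic, 64667 and 65551 bp from the start of that gene. Both members were called in 0 of 4 NPC-ΔZF1 and in 2 and 1 of 4 ESC-ΔZF1 libraries, and both in 11 of 14 Smc3 libraries. At Slc6a2, the noradrenaline transporter gene (chr8:92996875-92999042), both were called in 0 of 4 NPC-ΔZF1 libraries, in 1 and 2 of 4 ESC-ΔZF1 libraries, and in 14 and 13 of 14 Smc3 libraries. Few ΔZF1 calls of CTCF thus stood beside many Smc3 calls at both clusters, but the 14 Smc3 libraries cover all lines. Most of them are not from ΔZF1 cells, and Smc3 in ΔZF1 cells alone was not counted at these clusters. Rad21 was called in 3 and 3 of 8 libraries near Gm35514 and in 6 and 0 at Slc6a2. The pair at Prss35 (chr9:86743547-86746686) was split, with 1 Smc3 library at the member near the start site and 14 at the other. The pair at Lemd1 (chr1:132233549-132238044) had 6 and 14 Smc3 libraries, and an intergenic pair (chr9:71614590-71616615) had 4 and 7. The nearest start site to the intergenic pair, 16244 and 14744 bp away, was that of Cgnl1, a tight junction protein gene. The remaining cluster, at Spink13, had 13 and 14, and 0 and 5 of 8 Rad21 libraries.

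Cohesin was called slightly less often at clustered than at isolated sites on average, but no such difference passed the test after adjustment. Rad21 peaks were found at 21.1 and 26.1% of clustered sites in NPC-ΔZF1, 21.5 and 32.9% in NPC-WT, 6.16 and 10.3% in ESC-ΔZF1 and 18.6 and 40.9% in ESC-WT. In the same libraries and order the shares of isolated sites were 24.6 and 29.0%, 24.3 and 36.2%, 6.82 and 12.1%, and 19.4 and 42.9%. Isolated sites were above clustered sites in each of the 8 libraries, and the difference was -2.26 ± 1.11 points (SD, n = 8, means of 22.2% clustered and 24.4% isolated, exact p = 0.0078, the smallest that 8 libraries allow, adjusted p = 0.0586). Standardised for CTCF-WT enrichment it was -3.05 points (exact permutation p = 0.0078, adjusted 0.0586).

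Smc3 in rescue cells differed less between the classes, with means of 66.1% of clustered and 66.8% of isolated sites. The difference was -0.70 ± 0.87 points (SD, n = 8, exact p = 0.0859, 6 of 8 libraries below 0) and -1.66 points after standardisation (7 of 8, exact permutation p = 0.0156, adjusted 0.0586). It was larger without sites near start sites (-1.29 points) and with motif-bearing sites alone (-1.86 points), each with an exact p of 0.0078. With classes defined anew among sites called in all 8 CTCF-WT libraries, the standardised difference was -0.61 points (exact p = 0.25). In E14 and polyA NPCs Smc3 was called at 48.6% of clustered and 52.2% of isolated sites, a difference of -3.59 points that was negative in 6 of 6 libraries (exact p = 0.0313, adjusted 0.0670). Sites in between stood at 53.1 and 55.5% in E14, 37.5 and 51.5% in PodxlpA, and 47.0 and 45.0% in Grb10pA NPCs. Clustered sites stood close to these, at 53.4 and 55.8%, 37.9 and 51.1%, and 47.9 and 45.5%. The lower Smc3 share was thus not particular to clusters.

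With 2 libraries per group, the smallest p these tests allow lies above 0.05, so no difference between genotypes or cell types could pass. ΔZF1 minus WT was -0.92 points for Smc3 (exact permutation p = 0.278) and 0.058 for Rad21 (p = 0.889, exact). NPC minus ESC was 0.14 points for Smc3 (exact p = 0.722) and -1.84 for Rad21, which reached that smallest value (exact p = 0.0556).

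Larger clusters held fewer cohesin calls per site. Rad21 was called at 13.7% of sites in clusters of at least 4, 19.8% in clusters of 3 and 23.2% in pairs, averaged over 8 libraries, and Smc3 in rescue cells at 58.3, 64.7 and 66.9%. Inner members of clusters of at least 3 stood at 17.1% for Rad21 and 63.6% for Smc3, and outer members at 19.1 and 63.0%. The stronger member of a pair had Rad21 in 29.2% and Smc3 in 74.9% of pairs, and its weaker partner in 17.2 and 58.9%. These shares are given as a description, and clusters of at least 4 held 128 sites.

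Motif direction was uneven among close neighbours. Convergent pairs were scarcer among close than among distant neighbours. Of 948 adjacent pairs within 5 kb with a motif at both sites, 15.8% were convergent (150 pairs, interval 13.6 to 18.3%), 28.7% divergent and 55.5% on the same strand. Among neighbours further apart the convergent share was 18.7% at 5 to 20 kb, 25.8% at 20 to 50 kb and 29.2% beyond 50 kb (27.7 to 30.6%), and the divergent share was 28.8, 26.6 and 23.7%. Within clusters the share varied little with distance, with 16.5% convergent up to 1.5 kb, 15.4% from 1.5 to 2.5 kb and 15.8% from 2.5 to 5 kb.

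**Figure D2:**
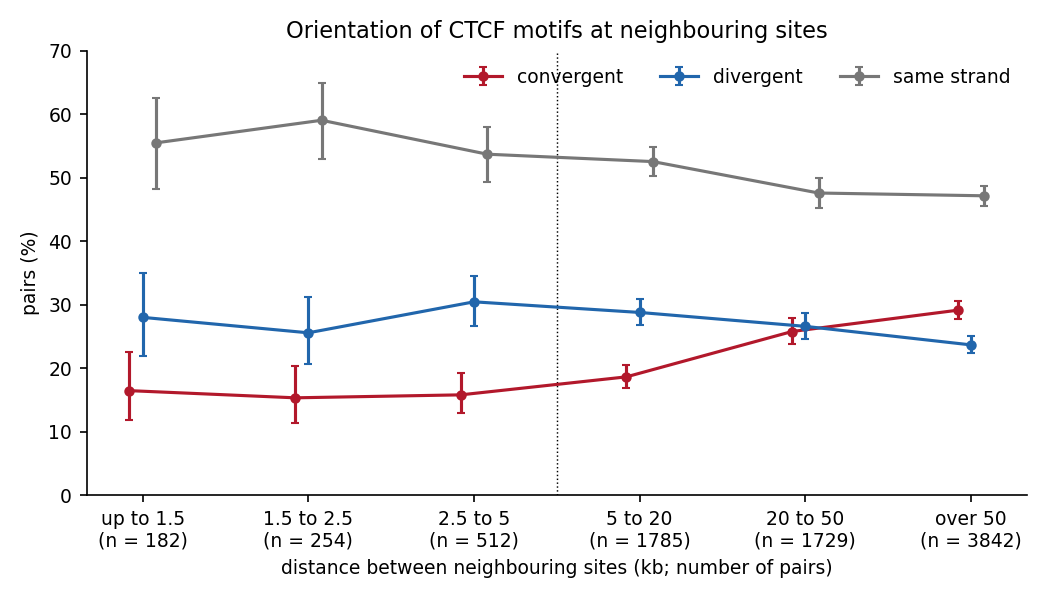
Share of adjacent pairs of motif-bearing sites (y axis, percent) that are convergent, divergent or on the same strand, by distance between summits (x axis, kilobases, binned), with 95% Wilson intervals as bars. The convergent share is 15.8% within 5 kb and 29.2% beyond 50 kb, and the same-strand share is 55.5% and 47.2%.

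Cohesin was called less often at convergent than at divergent pairs. This comparison was chosen after the data were seen, and it covers the 692 clusters of 2 sites with a motif at both, of which 101 were convergent, 202 divergent and 389 on the same strand. In E14 NPCs, Smc3 replicates 1 and 2 called 42.6 and 46.5% of the 202 sites of convergent pairs, against 63.6 and 65.6% of the 404 sites of divergent pairs. In PodxlpA NPCs the shares were 28.2 and 44.6% at convergent and 51.2 and 59.7% at divergent pairs, and in Grb10pA NPCs 41.1 and 34.2% at convergent and 61.4 and 52.5% at divergent pairs. Each of the 6 libraries had fewer calls at convergent pairs.

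The rescue cells gave the same direction. Smc3 was called at 81.2 and 83.7% of sites of convergent pairs in NPC-ΔZF1, 82.2 and 48.5% in NPC-WT, 59.4 and 43.6% in ESC-ΔZF1 and 61.4 and 28.7% in ESC-WT. At divergent pairs the same libraries called 89.6 and 87.9%, 89.4 and 65.3%, 75.0 and 62.9%, and 77.0 and 48.5%. Rad21 was called at 14.9 and 18.8% of convergent sites in NPC-ΔZF1, 15.3 and 25.2% in NPC-WT, 2.48 and 4.46% in ESC-ΔZF1 and 11.9 and 29.2% in ESC-WT. For divergent pairs the Rad21 shares were 28.5 and 34.2%, 27.2 and 44.3%, 8.91 and 13.6%, and 25.0 and 52.7%. All 16 of these libraries had the lower share at convergent pairs, whichever the genotype or cell type.

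**Figure D3:**
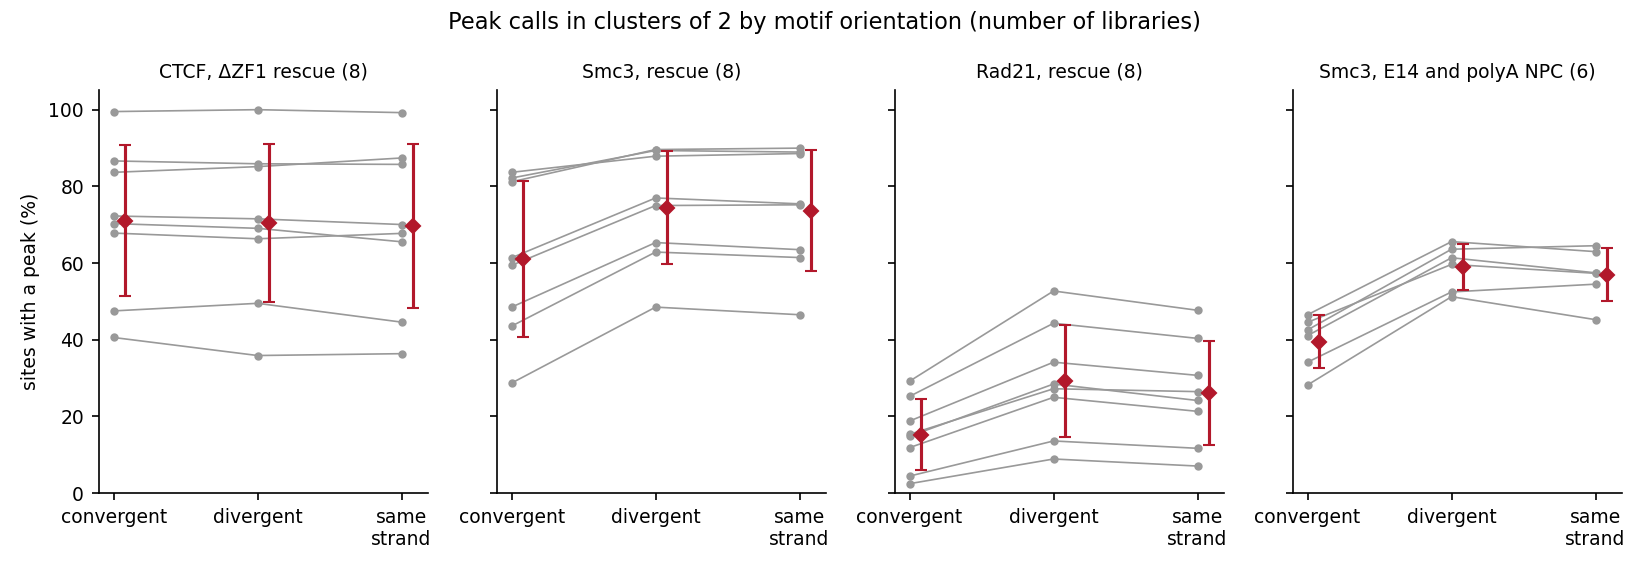
Share of sites called (y axis, percent) in convergent, same-strand and divergent 2-site clusters, 1 line per library, in panels for CTCF, Smc3 and Rad21. Cohesin lines are lowest at convergent pairs, with Smc3 means in E14 and polyA NPCs of 39.5% at convergent and 59.0% at divergent pairs, while CTCF lines in ΔZF1 cells are level, at 71.0 and 70.4%.

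Convergent minus divergent was -19.5 ± 2.7 points for Smc3 in E14 and polyA NPCs (SD, n = 6, exact p = 0.0313, adjusted 0.0469 over 15 orientation comparisons), -13.4 ± 5.9 for Smc3 in rescue cells (SD, n = 8, exact p = 0.0078, adjusted 0.0195) and -14.0 ± 5.4 for Rad21 (SD, n = 8, exact p = 0.0078, adjusted 0.0195). Convergent minus same-strand pairs gave -17.5, -12.6 and -10.9 points with the same p-values. CTCF itself differed little, by 0.62 points between convergent and divergent pairs in ΔZF1 cells (exact p = 0.5, 5 of 8 libraries above 0) and by -1.16 points in E14 and polyA NPCs (exact p = 0.0625). Convergent members had a median CTCF-WT percentile of 68.0 and divergent members of 70.2, and 25.2 and 19.1% lay within 1 kb of a start site. Without sites near start sites, and with pairs linked anew among sites called in all 8 CTCF-WT libraries, the cohesin differences kept their sign and stayed past the threshold. The p-values speak for these libraries over one fixed set of pairs.

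The order of convergent and divergent pairs turned with distance. For Smc3 in rescue cells, convergent minus divergent was -11.6 points for neighbours within 5 kb, -11.4 at 5 to 20 kb, -0.52 at 20 to 50 kb and 5.60 beyond 50 kb. Rad21 gave -12.2, -11.2, -1.51 and 5.76 points, and Smc3 in E14 and polyA NPCs -17.3, -16.1, 3.05 and 8.59 points. Convergent neighbours thus had fewer cohesin calls than divergent ones up to 20 kb and more beyond 50 kb. The change between the nearest and the most distant class was -17.2 points for Smc3 and -17.9 for Rad21 in rescue cells (exact p = 0.0078, adjusted 0.0146 over 15, 8 of 8 libraries each), and -25.9 for Smc3 in E14 and polyA NPCs (exact permutation p = 0.0313, adjusted 0.0361, 6 of 6). The low cohesin at convergent pairs is therefore shared by neighbours at 5 to 20 kb and is not particular to clusters.

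Within same-strand pairs, the member downstream in the motif direction was called less often than the upstream one for CTCF in ΔZF1 cells, by -2.73 points (68.2% downstream and 71.0% upstream, 8 of 8 libraries, exact p = 0.0078, adjusted 0.0195). Downstream members had a median CTCF-WT percentile of 68.7 and upstream members of 70.1. The call was lost with pairs linked anew among sites called in all 8 CTCF-WT libraries (-2.57 points, exact p = 0.203) and with linking at 10 kb (-0.87, exact p = 0.172). For cohesin the downstream member was called more often, by 5.69 points for Smc3 in rescue cells (8 of 8, exact p = 0.0078), 4.95 for Rad21 (7 of 8, exact p = 0.0234) and 6.21 for Smc3 in E14 and polyA NPCs (6 of 6, exact p = 0.0313). In the pairs linked anew among sites called in all 8 CTCF-WT libraries, this cohesin difference was -2.92 points for Smc3 in rescue cells (exact p = 0.0313), -2.02 in E14 and polyA NPCs and 1.05 for Rad21. At equal peak numbers it was -0.064 for Rad21.

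The 4 closest pairs with no member within 1 kb of a start site show how single pairs vary. The convergent pair in the Gm13814 intron, 790 bp apart, was called in 11 and 14 of 14 Smc3 libraries and 5 and 2 of 8 Rad21 libraries. The pair at Gpa33, a cell surface antigen gene (chr1:166153281-166154744, 791 bp), was called in 14 and 14 Smc3 and 7 and 7 Rad21 libraries. The same-strand pair upstream of Nid2, which encodes a basement membrane protein (797 bp), had 12 and 12 Smc3 and 2 and 6 Rad21 libraries. The divergent pair upstream of Wdr95 (810 bp) had 10 and 4 Smc3 and 4 and 0 Rad21 libraries, so the order of the group means did not hold for each pair.

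The 6 largest clusters differed in Rad21 calls. Their members averaged 0.17 of 8 Rad21 libraries on the Y chromosome, 1.5 at Fxyd2, 1.4 at Adgrl1, 1.6 at Rhbg, 0.2 at Irx5 and 0.8 at Myh7b. Over all clustered sites the mean share with Rad21 was 22.2% per library. The 6 members on the Y chromosome, in a Gm47283 intron (chrY:90799201-90811275), stood at CTCF-WT percentiles of 48.6, 39.2, 88.6, 50.0, 77.6 and 8.39, and were called in 6, 5, 8, 5, 6 and 3 of 8 ΔZF1 libraries. Smc3 was called in 9 of 14 libraries at member 3 and in at most 2 at the others, and Rad21 in 1 of 8 at member 1 and in 0 at the others. Member 3, at the top in CTCF, was thus the only 1 of the 6 with frequent Smc3. The 6 members between Fxyd2, a regulator of the sodium pump, and Dscaml1, a neural adhesion molecule (chr9:45408125-45421664), were called in 14, 9, 5, 11, 8 and 6 Smc3 libraries and 3, 0, 0, 4, 2 and 0 Rad21 libraries. Its 4 motifs all lay on the minus strand.

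The clusters of 5 lay at Adgrl1, a latrophilin receptor gene (chr8:83893855-83903668), Rhbg, an ammonium transporter gene (chr3:88235120-88246253), Crnde and Irx5, an Iroquois homeobox gene (chr8:92355560-92367440), and Myh7b, a myosin heavy chain gene (chr2:155619804-155631662). At Adgrl1 the member at -228 bp from the start site reached the 99.5th CTCF-WT percentile without a motif and had 5 Smc3 and 0 Rad21 libraries, while member 1, at percentile 76.9, had 13 and 7. The 5 members at Irx5 averaged 8.6 Smc3 and 0.2 Rad21 libraries. CTCF rank and cohesin thus parted at single members.

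Among the listed gene groups, imprinted genes had the most clusters. Of 19 imprinted genes with a kept site within 5 kb, 7 had a clustered site, in 6 clusters. Of 44 protocadherin genes, which share promoters with CTCF sites, 17 had one, but in only 2 clusters, so the same cluster is counted for many genes. None of 26 Hox genes did. Klf4, a pluripotency factor, was 1 of 7 such genes with one, Msi1, a neural RNA-binding protein, was 1 of 11 neural genes, and none of 9 cohesin or CTCF genes and none of 3 X-chromosome genes had one. Over all kept sites 20.2% were clustered, a share by sites and not by genes. A share over all genes was not computed, so no enrichment can be read from these counts.

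At the Kcnq1 and Cdkn1c domain on chromosome 7 there were 3 clusters. The 3 same-strand members between Cdkn1c, an inhibitor of cell division, and Slc22a18 (chr7:143463793-143470426) had 14, 14 and 13 of 14 Smc3 and 6, 8 and 2 of 8 Rad21 libraries, and were called in 2, 3 and 2 of 4 NPC-ΔZF1 and 3, 4 and 3 of 4 ESC-ΔZF1 libraries. The divergent pair in Kcnq1, a potassium channel gene (chr7:143152216-143154379), had 10 and 14 Smc3 and 1 and 8 Rad21 libraries. The pair near Phlda2 (chr7:143505748-143507127) had 8 and 6 Smc3 and 0 and 2 Rad21 libraries. Cohesin calls were thus frequent at the first of these clusters and fewer at the last.

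Other listed genes gave the following. The convergent pair at Meg3, a maternally expressed noncoding RNA (chr12:109541817-109543262, summits 854 bp apart), was called in 4 and 3 of 4 NPC-ΔZF1 and all ESC-ΔZF1 libraries, with 12 and 14 Smc3 and 0 and 5 Rad21 libraries. The same-strand pair at H13 (chr2:152693144-152697236) had 12 and 14 Smc3 and 3 and 8 Rad21 libraries, and the pair in Trappc9 (chr15:72808973-72810785) had 3 and 6 Smc3 and 0 and 1 Rad21 libraries. At Klf4 (chr4:55530055-55531798) Smc3 was called in 12 libraries at the motif-bearing member and in 0 at the other, and at Msi1 (chr5:115441286-115443147) in 14 and 11.

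Few of the tested clustered sites passed a test for different CTCF enrichment between conditions. This test, limma on normal scores of each peak's rank in its library, covers sites called in all 8 libraries compared, which leaves out sites lost in either group. The CTCF-WT libraries in it also chose the sites, so its counts are a description, read against sites chosen the same way. On simulated data the test mostly missed shifts near 1 normal score, so low counts do not show that CTCF changed little. For ΔZF1 against WT, 0 of 540 clustered sites in NPCs and 0 of 1149 in ESCs passed an adjusted p of 0.05, against 0% of 2360 and 0.0194% of 5152 sites in all. At an unadjusted p under 0.05 there were 64 clustered sites in NPCs and 28 in ESCs, or 11.9 and 2.44% against 14.2 and 3.03% of all sites. Single libraries decided these counts, since without NPC-ΔZF1 replicate 4 there were 20 clustered sites in NPCs among 121 of all 2375, and without ESC-ΔZF1 replicate 1 there were 3 in ESCs among 10 of all 5152. The replicate numbers paired the libraries, and with the number as a replicate block 0 clustered sites passed in NPCs and 3, all lower in ΔZF1, in ESCs, against 0.805% and 0.214% of all sites. The median difference at clustered sites was -0.38 in NPCs and -0.08 in ESCs on the normal score scale, and at isolated sites -0.39 and -0.05. In NPCs 51 of the 540 clustered and 116 of 1078 isolated sites were higher in ΔZF1. In ESCs 453 of the 1149 clustered and 1008 of 2367 isolated sites were.

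Between NPC-WT and ESC-WT, 7 of 1337 clustered sites passed limma, 6 higher and 1 lower in NPCs, or 0.524% against 0.686% of all 5981 sites (0.585% higher and 0.1% lower). With the replicate block 90 passed, 50 higher and 40 lower, or 6.73% against 7.57% of all sites (4.97% higher and 2.61% lower). Both shares were near those of all sites. The count without the block rested on single libraries. It was 0 without NPC-WT replicate 2 or 4, 1 without NPC-WT replicate 1 or ESC-WT replicate 2, 2 without ESC-WT replicate 3, 5 without NPC-WT replicate 3, 11 without ESC-WT replicate 4 and 21 without ESC-WT replicate 1. Libraries numbered 1 and 4 alone gave 0 and those numbered 2 and 3 alone gave 1, and with all libraries of number 4 left out the count was 0.

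**Figure D4:**
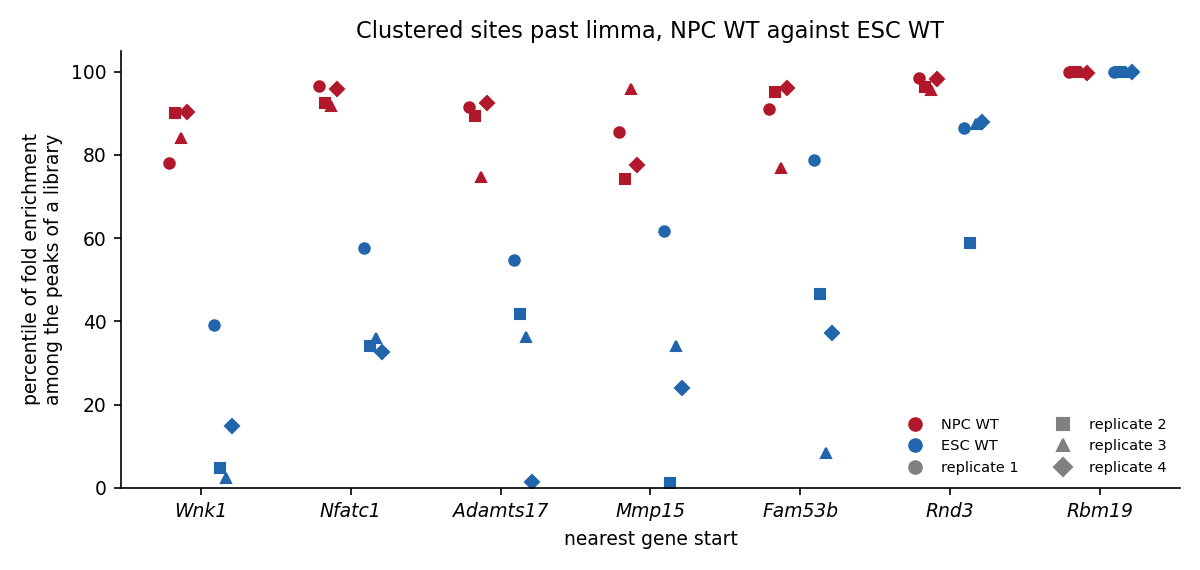
Percentile of fold enrichment among the peaks of a library (y axis, 0 to 100) in the 4 NPC-WT and 4 ESC-WT libraries at the 7 clustered sites past limma, named by nearest gene start (x axis). NPC points lie above ESC points at Wnk1, Nfatc1, Adamts17, Mmp15 and Rnd3, overlap at Fam53b, and lie at or above 99.76 in all libraries at Rbm19.

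The sites higher in NPCs are described by their values. Wnk1, a kinase gene of ion transport control, had a site 529 bp from its start (chr6:120036824-120038143) at percentiles 78.1, 90.0, 84.1 and 90.3 in NPC-WT replicates 1 to 4, against 39.1, 4.71, 2.40 and 14.8 in ESC-WT. The groups did not overlap, and the difference was 2.33 on the normal score scale. At Nfatc1, a calcineurin-dependent transcription factor, the values were 96.4, 92.4, 91.8 and 95.7 in NPC-WT, against 57.5, 34.0, 36.05 and 32.7 in ESC-WT (a difference of 1.84). Adamts17, a secreted metalloprotease gene (chr7:66839289-66840896), stood at 91.4, 89.3, 74.7 and 92.5 in NPC-WT, against 54.8, 41.6, 36.2 and 1.49 in ESC-WT (a difference of 1.83). All 3 were lower in each ESC library than in any NPC library.

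Mmp15, a membrane metalloproteinase gene (chr8:95351379-95353634), stood at 85.5, 74.2, 95.8 and 77.7 in NPC-WT, against 61.6, 1.13, 34.1 and 24.0 in ESC-WT, and Fam53b (chr7:132812437-132814137) at 90.9, 95.1, 76.8 and 96.2 against 78.8, 46.7, 8.32 and 37.3. At Fam53b the groups overlapped. Rnd3 (chr2:51147383-51148562) stood at 98.5, 96.2, 95.6 and 98.2 in NPC-WT, against 86.5, 58.7, 87.3 and 88.0 in ESC-WT. The 1 site lower in NPCs, near Rbm19, a nucleolar RNA-binding protein gene (chr5:120102453-120103522), ranked at 99.76 or above in all 8 libraries.

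None of the 6 sites higher in NPCs had a motif, and 5 of 6 lay within 1 kb of a start site. Under the replicate block, 29 of the 50 clustered sites higher in NPCs lay within 1 kb of a start site (58.0%), against 30.0% of the 1247 clustered sites not called, and 28 of 50 had a motif (56.0%, against 80.4%). Their median number of Smc3 libraries was 4.5 of 14, against 11. These features were not particular to clusters. Of the 169 isolated sites higher in NPCs, 67.5% lay within 1 kb of a start site and 61.5% had a motif, and of the 78 sites in between 60.3 and 50.0%, each with a median of 5 Smc3 libraries. Of the 40 clustered sites lower in NPCs, 9 lay within 1 kb of a start site, 32 had a motif and the median was 13 Smc3 libraries. The called sites lay in 88 clusters, and in 2 of these 2 members were called, each time in the same direction.

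Pairs were also chosen for the widest mean NPC minus ESC difference of their members, taken over the CTCF-WT libraries that called each member. On the higher side they lay at Prr23a1 (chr9:98842445-98844751, 1.63 on the normal score scale) and Wnk1 (1.56). On the lower side they lay in Dis3l2, an exoribonuclease gene (chr1:87040935-87042529, -1.05), and near Tekt1, a tektin gene of cilia (chr11:72342314-72344359, -1.002). Both Prr23a1 members were called in only 6 of 8 CTCF-WT libraries. Smc3 was called in 1 and 2 of 14 libraries at Prr23a1 and in 11 and 14 at Dis3l2. Across adjacent sites, the NPC minus ESC difference of a site and its neighbour had a Pearson r of 0.18 over 680 pairs within 2.5 kb, 0.096 over 782 pairs at 2.5 to 5 kb and 0.039 over 2751 pairs at 5 to 20 kb. The number of ΔZF1 libraries called had r of 0.022, 0.055 and 0.038. These are correlations across sites that share libraries, and they were weak at each distance.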

How the data were processed

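ChIP-seq peak lists of CTCF, Smc3 and Rad21 were analysed in 44 of 54 samples, grouped by the labels. Per the labels and the methods of the study, reads were aligned to mm10 with Bowtie2, reads with a mapping quality under 30 were removed, duplicates were handled with Picard, blacklisted regions were dropped, and MACS2 called peaks for each library at a q of 0.01. Not given in the sources used here are the versions of these tools and which input went with which sample. Every list, as deposited by the authors, holds peak coordinates, a summit offset, a score derived from q for display, the fold enrichment over local background at the summit, and the −log10 p and −log10 q. The score and −log10 p were not used. The lists do not state read depth, so intervals cover counting error only, and peak numbers stand for depth.

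Sites were merged from the 8 CTCF-WT rescue lists, and a library called a site if a peak overlapped it by at least 1 bp. The share called at clustered minus isolated sites was computed in each library and tested over libraries by two-sided exact permutation (sign flips, or labels within strata), with Benjamini-Hochberg adjustment within families of 15 comparisons. Fold enrichment was ranked within each list, converted to normal scores and compared with limma (3.58.1, R 4.3.3) at sites called in all 8 libraries of a comparison, adjusted over all those sites. Same-numbered libraries deviated together, with a Pearson r above 0.1 in each of 16 pairs (0.203 to 0.577), though in 2 of the 16 a library of another number correlated better, so the replicate number was taken to pair them. On simulated data, limma recovered 5, 29 and 20 of 100 sites shifted by 1 normal score, and 95, 96 and 94 of 100 shifted by 3, for ΔZF1 against WT in ESCs (5152 sites), ΔZF1 against WT in NPCs (2360) and NPC-WT against ESC-WT (5981). Thus shifts near 1 were mostly missed.

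Motifs and sequences were read from the RefSeq GRCm38 genome and gene features from GENCODE M21, with Python 3.11.15, numpy 2.4.6, pandas 2.3.3 and scipy 1.17.1. The members, gene lists and tests were chosen with earlier results of these data known. The clusters named were the 6 largest, the 6 with the fewest ΔZF1 calls, the 4 strongest called in every CTCF library, up to 8 at listed genes, the 2 with the largest NPC minus ESC difference in each direction, the 4 closest pairs away from start sites, and sites past limma. The orientation comparisons, and the sequences of the closest pairs, were added after the data were seen. Alternatives covered the peak threshold, the overlap rule, the linking and isolation distances, the number of CTCF-WT calls, equal peak numbers, site subsets, single libraries left out, the replicate block and quantile normalisation.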

Additional observations from a re-analysis of the deposited data

Results flagged for a closer look

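Of 40 groups of 4 to 10 libraries examined, 5 held a library far from the others. The rule flags about 1 in 20 groups of independent values, but these groups shared libraries and were not independent. All flagged values came from CTCF-WT libraries, which also chose the sites, so the count is a description. NPC-WT replicate 4 called 73.97% of clustered sites, while the other 3 NPC-WT libraries called between 95.6 and 97.7%. It called 69.8% of isolated sites, while the others called between 94.3 and 97.5%, and it called both members of 55.8% of the 2-site clusters, against 91.6 to 95.2% in the others. At the clustered site near Nfatc1, ESC-WT replicate 1 stood at percentile 57.5 and the other ESC-WT libraries between 32.7 and 36.05. At the site near Rnd3, ESC-WT replicate 2 stood at percentile 58.7 and the others between 86.5 and 87.97.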

How the results depend on the processing

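Without counting libraries left out, 288 values kept their direction and call, 21 turned, 14 lost and 13 gained the threshold and 14 moved, and the causes were not tested. Convergent minus divergent cohesin differences kept both under each of these settings (Smc3 -21.5 to -8.01 in rescue cells and -21.8 to -15.9 points in E14 and polyA NPCs, Rad21 -15.7 to -7.15).

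At a −log10 q of at least 5, CTCF convergent minus same-strand in E14 and polyA NPCs was -2.08 (exact p = 0.0313). Linking at 2.5 kb gave -0.16 for ΔZF1 NPC minus ESC, -2.13 for Smc3 (exact p = 0.0078) and -0.038 for Rad21 ΔZF1 minus WT. Linking at 10 kb gave -0.53 for Smc3 NPC minus ESC, and for CTCF in ΔZF1 cells 2.5 convergent minus divergent (exact p = 0.0156) and -0.87 downstream minus upstream (exact p = 0.172). Sites called in all 8 CTCF-WT libraries, with classes and pairs defined anew among them, gave 1.06 (exact p = 0.305) for CTCF in ΔZF1 cells, 1.45 standardised (exact p = 0.164) and -0.15 for NPC minus ESC, -0.61 for standardised Smc3 (exact p = 0.25), 0.29 for Smc3 and -1.16 for Rad21 ΔZF1 minus WT. Downstream minus upstream there was -2.57 for CTCF in ΔZF1 cells (exact p = 0.203), -2.92 for Smc3 and 1.05 for Rad21 in rescue cells, and -2.02 for Smc3 in E14 and polyA NPCs.

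Equal peak numbers gave 1.99 for standardised CTCF in ΔZF1 cells, past no threshold, -2.02 for NPC minus ESC, -1.06 for Smc3 NPC minus ESC, -0.12 for Rad21 ΔZF1 minus WT and -0.064 for Rad21 downstream minus upstream. CTCF convergent pairs in ΔZF1 cells then differed by 2.82 from divergent (exact p = 0.0313) and 3.56 from same-strand pairs (exact p = 0.0234), and in E14 and polyA NPCs by -2.10 from divergent pairs, with -2.36 downstream minus upstream (exact p = 0.0313 each). More than 1 kb from start sites, Smc3 gave -1.29 (exact p = 0.0078) and CTCF in E14 and polyA NPCs 0.12, 0.22 and -1.39 for convergent minus divergent, convergent minus same-strand and downstream minus upstream (exact p = 0.0313 for the last). Sites with a motif gave -1.86 for Smc3 (exact p = 0.0078). Among alternatives chosen after seeing the data, autosomes gave -0.028 for Rad21 ΔZF1 minus WT, and isolated sites with no weaker neighbour -1.02 for Smc3 NPC minus ESC and -0.49 for Rad21 ΔZF1 minus WT. Libraries 1 and 4 gave 2.09 for CTCF in ΔZF1 cells, 1.33 standardised, -0.25 convergent minus divergent and -2.63 downstream minus upstream, and libraries 2 and 3 gave 5.32, 3.61 and -2.83 for the first, second and last of these, where 4 libraries cannot pass the threshold. With number 4 left out of the tested and the site libraries (sites called in 5 or more of 6, also chosen after seeing the data), CTCF in ΔZF1 cells gave 4.54 (exact p = 0.0313), 2.29 standardised (exact p = 0.0938), -1.56 convergent minus divergent and -1.14 convergent minus same-strand, CTCF in E14 and polyA NPCs -5.002 and -3.79 for these pairs (exact p = 0.0313 each), and Smc3 -1.06 (exact p = 0.0156), with -0.41 for NPC minus ESC.

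With the replicate block, sites past limma numbered 11 for ΔZF1 against WT in ESCs, 19 in NPCs and 453 for NPC-WT against ESC-WT, in place of 1, 0 and 41, and the block left the ΔZF1 NPC minus ESC difference at 1.14. Quantile normalisation gave 11, 2 and 163, libraries 1 and 4 gave 2, 0 and 0, libraries 2 and 3 gave 0, 18 and 3, and libraries 1, 2 and 3 gave 0, 19 and 0. Leaving out 1 library, tested or behind the sites, gave 0 to 10, 0 to 121 and 0 to 119 sites (121 without NPC-ΔZF1 replicate 4, 119 without ESC-WT replicate 1). It gave 3.12 to 4.12 for CTCF and -4.05 to -2.93 for Smc3 in E14 and polyA NPCs, -0.95 to -0.17 for Smc3 in rescue cells, -0.73 to 0.72 for Smc3 NPC minus ESC and -0.26 to 0.38 for Rad21 ΔZF1 minus WT. For CTCF in E14 and polyA NPCs it gave -3.23 to -0.34, -2.59 to 0.14 and -2.58 to -0.56 for convergent minus divergent, convergent minus same-strand and downstream minus upstream, and for Smc3 there -23.0 to -17.96, -19.5 to -14.8 and 4.69 to 7.13. For CTCF in ΔZF1 cells convergent pairs gave -1.26 to 1.30 and -0.99 to 2.20. With 5 of 6 libraries the smallest exact p is 0.0625, above the threshold.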

Other observations

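Values that belong to no comparison above were as follows. Merged sites of the clustered class had a median width of 662 bp and isolated sites of 623 bp. At least 1 CTCF-WT library placed several peaks within 7.96% of clustered sites and 6.64% of isolated sites. A weaker merged site lay within 5 kb of 35.2% of clustered sites (interval 33.4 to 37.0%) and 30.6% of isolated sites (29.5 to 31.7%), so some isolated sites have a close neighbour that fewer libraries called. Motif matches without a mismatch were found at 17.3% of members of convergent pairs, against 23.0% of members of divergent pairs. The part of this difference in the cohesin values was not tested.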
